A study of Mus musculus with 135 samples.

Results

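The genes described here are 7 genes of aldehyde and xenobiotic handling, of 15181 genes in a table of read counts from single mouse haematopoietic stem cells (HSCs). They are Aldh1a1, Aldh2, Adh5, Sult1a1, Gstm1, Clca1 and Ahr, taken by name, and all 7 were in the table. They were chosen by name with the measured differences between young and old cells in view, so their differences with age are given as a description, without a test. Sult1a1, Aldh1a1, Clca1 and Gstm1 also belong to a list of leading genes that the study itself selected on these cells.

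HSCs were sorted from bone marrow of C57BL/6 mice carrying the Vwf-eGFP reporter transgene as lineage-negative cells with Sca-1, c-Kit and CD150 but without CD48, from 1 mouse aged 2 to 3 months (young) and 1 aged 20 to 25 months (old). Both mice carried the reporter and neither was treated. Cells were captured one by one on a microfluidic chip, a separate experiment for each age, and full-length cDNA from each was sequenced. Of 61 young and 74 old cells, the 52 young and 62 old cells that met the study's limits were used, with 273236 to 5688706 counted reads per young cell and 276316 to 4086659 per old cell. Since each age is 1 mouse and 1 capture, cells are not replicates of an age: age, mouse, and experiment cannot be told apart, and no p-value or standard error across cells is given.

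The stem cell label was compared with marker genes. Meis1, a transcription factor of HSCs, was expressed in all 52 young and all 62 old cells, and Kit in 49 and 61, while Procr was expressed in 11 and 24, Fgd5 in 6 and 14 and Hoxb5 in 7 and 5. Of the genes the sort selects against, Cd48 was expressed in 1 young and 0 old cells, Flt3 in 5 and 2, Cd4 in 5 and 0, Cd8a in 3 and 3 and Itgam in 8 and 1. Slamf1, which encodes CD150, was expressed in only 9 young and 15 old cells, and Cd34 in 28 and 23. Markers of other cells were also detected: Cd3d in 16 young and 16 old cells, Cd79b in 12 and 16, Nkg7 in 10 and 15, Klrb1c in 0 and 9, Lyz2 in 43 and 43, and Lepr in all cells of both ages. Cd3e and Ly6g had no row in the table. The summed level of 6 granulocyte and macrophage genes had a median of 80.2 reads per 1000000 counted reads (CPM) in young and 91.7 in old cells, with a highest value of 1811 and 1564. Sex-linked genes differed between the mice: Xist, the RNA of the inactive X chromosome, was expressed in 50 young and 8 old cells, and 1 or more of the 4 Y-linked genes in 2 and 58. Sex and age cannot be told apart in the values below.

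Aldehydes arise in every cell from metabolism, lipid peroxidation and the turnover of methyl groups, and they damage DNA and proteins unless they are oxidized. Aldehyde dehydrogenases oxidize them to acids: Aldh2 is the mitochondrial enzyme that clears acetaldehyde, and Aldh1a1 is a cytosolic enzyme that turns retinaldehyde into retinoic acid. Adh5 oxidizes formaldehyde bound to glutathione. Loss of Aldh2 or Adh5 together with loss of the Fanconi anaemia repair pathway is known to deplete mouse HSCs. Sult1a1 adds sulfate to phenolic compounds and Gstm1 joins glutathione to electrophiles, and both make such compounds easier to export. Ahr is a receptor that binds planar aromatic ligands and switches on genes of drug metabolism. Clca1 belongs to a family of secreted proteins that modulate calcium-activated chloride channels; its place beside the others is by the list of genes and not by a known role in detoxification.

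Levels are log2(CPM + 1) per cell, a level difference is the mean over old cells minus the mean over young cells, and a cell was counted as expressing a gene above a level of 2, which is 3 CPM. Sult1a1, Aldh1a1, Clca1 and Gstm1 were higher in old cells by 3.66 to 4.83, and the other members, Aldh2, Ahr and Adh5, were lower by less than the limit of 1. By size of rise they took ranks 7, 8, 11 and 15 among the 15014 genes with a count, and Aldh2, Ahr and Adh5 took ranks 12689, 13444 and 13767. Of the 7 members, 4 were higher by at least 1 and 0 were lower by at least 1. Over all 15014 genes, 3.91% were higher and 4.49% lower by at least 1. For shares of expressing cells, the 95% intervals of the 2 ages lay apart for 4 of the 7 members, all higher in old cells, and for 0 in the other direction. The same held for 0.899% (higher in old) and 0.733% (lower in old) of all genes. The median level difference was 3.66 over the members and -0.02 over all genes with a count. Because these differences chose the members, the counts beside the background are not read as a result about them.

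**Figure D1:**
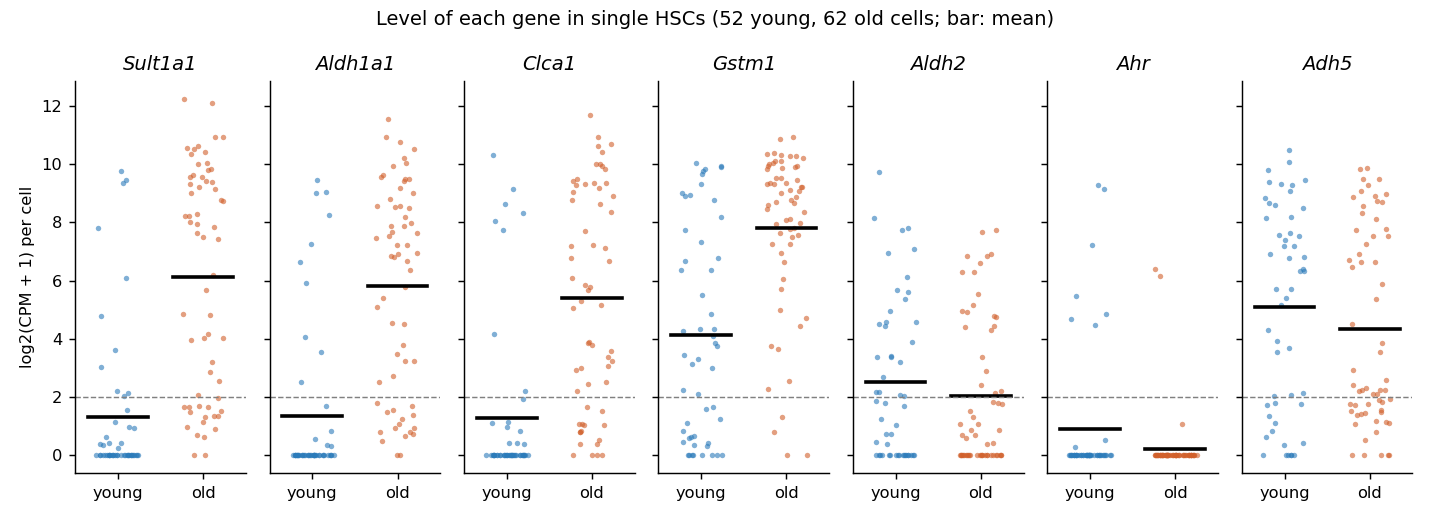
Level of each gene, as log2(CPM + 1), in each of 52 young and 62 old HSCs; each point is a cell, the bar is the mean over cells and the dashed line the limit of 2 for an expressing cell. For Sult1a1, Aldh1a1 and Clca1 the old cells spread from 0 to above 11, with 45, 46 and 46 of 62 above the limit, and for Gstm1 58 of 62 old cells lie above it.

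Sult1a1 encodes the main phenol sulfotransferase. Its level in young cells ran from 0 to 9.76 with a median of 0, and in old cells from 0 to 12.25 with a median of 7.57. The ages overlap, since the highest young cells reach well into the range of the old cells, but most young cells had no Sult1a1 read at all (31 of 52, against 2 of 62 old cells). The mean level was 1.30 in young and 6.12 in old cells, a difference of 4.83. Sult1a1 was expressed in 11 of 52 young cells (21.2%, exact 95% interval 11.1 to 34.7%) and 45 of 62 old cells (72.6%, 59.8 to 83.1%). In the cells that expressed it, the median level was 4.78 in young and 8.78 in old cells. Both the number of expressing cells and the level in them were thus higher in old cells at the limit of 2. Above a level of 4 lay 6 young and 40 old cells, and the medians over those lay closer to each other. The summed counts were 6725 (exact Poisson 95% interval 6565 to 6888) and 68260 (67749 to 68774), and in CPM of the summed reads old cells had 11.7 times the young value. The cell with most Sult1a1 reads held 35.02% of the young reads. These intervals cover counting error only, since PCR copies were counted without molecular identifiers.

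Aldh1a1 ran from 0 to 9.46 in young cells with a median of 0, and from 0 to 11.57 in old cells with a median of 6.88. The pattern resembles that of Sult1a1 in that 37 of 52 young cells had no read. The mean level was 1.33 and 5.80, a difference of 4.47, and the gene was expressed in 10 young cells (19.2%, 9.63 to 32.5%) and 46 old cells (74.2%, 61.5 to 84.5%). Among expressing cells the medians were nearer to each other, 6.95 in young and 7.78 in old cells. The difference in mean level was thus carried more by the number of expressing cells than by the level in them. Summed reads were 7379 and 41559, of which 1 cell held 30.7% and 23.2%.

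Clca1 is named in the table by an older symbol. The same table lists Clca2, Clca4 and Clca6, and Clca4 and Clca6 are older symbols in RefSeq, so the row was taken as the gene now called Clca3a1, for which RefSeq gives Clca1 as a synonym. Its level ran from 0 to 10.31 in young cells with a median of 0, and from 0 to 11.70 in old cells with a median of 5.48. The mean level was 1.27 and 5.39, a difference of 4.12. It was expressed in 8 young cells (15.4%, 6.88 to 28.1%) and 46 old cells (74.2%, 61.5 to 84.5%). At the limit of 2, the 8 expressing young cells had a higher median, 8.19, than the 46 expressing old cells, 7.22. Above a level of 4 lay 7 young and 34 old cells, and over those the order of the medians turned. For Clca1 the higher mean in old cells thus went with more expressing cells, while the order of the levels in them depended on the limit. One cell held 41.8% of the 7636 young reads and another 13.01% of the 41743 old reads.

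Gstm1, a mu-class glutathione S-transferase, was the member that most old cells expressed, while in young cells only Adh5 was expressed in more cells. Levels ran from 0 to 10.05 in young cells with a median of 3.59, and from 0 to 10.93 in old cells with a median of 8.73. The lower quartile of the old cells was 7.26 and the upper quartile of the young cells 7.43, so the upper young cells and the lower old cells share the same range. The mean was 4.15 and 7.81, a difference of 3.66. It was expressed in 32 young cells (61.5%, 47.02 to 74.7%) and 58 old cells (93.5%, 84.3 to 98.2%), with median levels of 6.52 and 8.94 among those cells. These share intervals overlap when cells with a cell cycle gene are left out (18 of 25 young and 45 of 49 old cells). No cell held more than 14.4% of the reads of an age. Per kilobase of transcript, Gstm1 had the highest mean CPM of the members at both ages, 140.4 in young and 420.5 in old cells. Sult1a1 was next in old cells (395.0 CPM per kilobase), before Aldh1a1 (144.3), Clca1 (99.9), Adh5 (94.2), Aldh2 (5.46) and Ahr (0.450). In young cells Adh5 was next (127.2), before Sult1a1 (36.1), Aldh1a1 (19.5), Clca1 (16.7), Aldh2 (11.1) and Ahr (5.03). Neighbours in these orders, such as Gstm1 and Adh5 in young cells or Clca1 and Adh5 in old cells, have per-cell values that overlap across most of their range. Single cells carry part of the lower values: without the cell with the highest value, the young level of Clca1 was 9.96, that of Aldh2 7.02 and that of Ahr 2.94 CPM per kilobase, and in old cells Clca1 (86.1) and Adh5 (86.3) changed places.

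**Figure D2:**
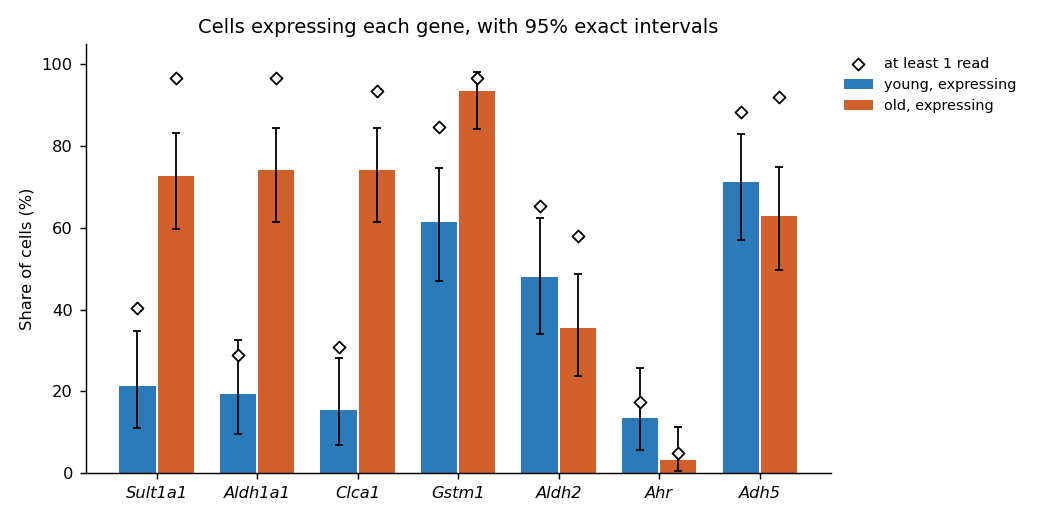
Share of 52 young and 62 old cells expressing each gene (bars, in percent, with exact 95% intervals) and share with at least 1 read (diamonds). The intervals of the ages lie apart for Sult1a1, Aldh1a1, Clca1 and Gstm1, and for Sult1a1, Aldh1a1 and Clca1 nearly every old cell has a read (60, 60 and 58 of 62) although 45, 46 and 46 pass the limit.

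The other enzymes for small aldehydes did not follow the same course. Adh5, the glutathione-dependent formaldehyde dehydrogenase, ran from 0 to 10.50 in young cells with a median of 6.02, and from 0 to 9.86 in old cells with a median of 2.49. The ages overlap over nearly the whole range. The mean was 5.10 and 4.35, a difference of -0.76, and the gene was expressed in 37 young cells (71.2%, 56.9 to 82.9%) and 39 old cells (62.9%, 49.7 to 74.8%), with intervals that overlap. Above a level of 4 the shares were 59.6% and 43.5%, but above a level of 1 they were 80.8% and 88.7%, so the order of the ages turns with the limit. Aldh2, the mitochondrial acetaldehyde dehydrogenase, ran from 0 to 9.74 with a median of 1.83 in young cells, and from 0 to 7.73 with a median of 0.78 in old cells. Its mean was 2.53 and 2.04, a difference of -0.49, with 25 young cells (48.1%, 34.01 to 62.4%) and 22 old cells (35.5%, 23.7 to 48.7%) expressing it. The share intervals overlap for Aldh2 as well.

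Ahr, the aryl hydrocarbon receptor, was detected in few cells. Of 52 young cells 9 held a read, as did 3 of 62 old cells, and 7 (13.5%, 5.59 to 25.8%) and 2 (3.23%, 0.393 to 11.2%) passed the limit. The levels ran from 0 to 9.28 and from 0 to 6.39, with a median of 0 at both ages. The mean was 0.88 and 0.22, a difference of -0.66. The summed reads were 4208 and 238, a log2 ratio of CPM of -3.93, but 1 cell held 53.02% of the young reads and another 79.8% of the old reads. With so few expressing cells and overlapping intervals, no difference in the share of Ahr-expressing cells is read from these values. With 1 mouse per age none was tested.

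Many old cells below the limit still had a few reads. Of the 16 old cells that did not express Aldh1a1, 14 had 1 to 5 reads. For Sult1a1, 15 old cells had 1 to 8 reads, and for Clca1, 12 old cells had 1 to 4. In young cells the corresponding numbers were 5, 10 and 8 cells, of a larger number of non-expressing cells. Xist gives a value to set beside these: in the old mouse, whose cells carried Y-linked reads, 34 of 62 cells had at least 1 Xist read and 26 of them had 1 to 5 reads. Ddx3y, on the Y chromosome, had reads in 5 of 52 young cells, and Eif2s3y in 0. Where the few reads of the members in old cells came from was not tested, and counts of cells with at least 1 read are for that reason not used as counts of expressing cells. The limit of 2 does not remove all such cells, since Xist passed it in 8 of the 62 old cells. In cells with very few counted reads 1 read is enough to pass. An example is young cell H6 (273236 counted reads), with Sult1a1 and Clca1 each at a level of 2.22. Above a level of 4, the share intervals of Sult1a1, Aldh1a1, Clca1 and Gstm1 still lay apart between the ages.

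The members were then counted per cell. A young cell expressed a median of 2 of the 7 members (0 to 6), and an old cell a median of 4 (1 to 6). Of the young cells 11 expressed 4 or more members, and of the old cells 43. All of Sult1a1, Aldh1a1, Clca1 and Gstm1 were expressed together in 3 young and 24 old cells, and 18 young and 0 old cells expressed none of these 4 genes. Another 25 old cells expressed 3 of the 4, so the pattern in old cells was not carried by a small group of cells. Old cells did not express more genes in general: a young cell expressed a median of 4116 genes and an old cell 3902.

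Whether the members rose and fell with each other from cell to cell was described by Pearson's r across the cells of an age. Over the 21 pairs the median r was 0.06 in young cells (-0.24 to 0.49) and 0.05 in old cells (-0.16 to 0.27). The cells of an age share a chip and a mouse, and counts of this kind are sparse, so a weak r is not read as a relation. The highest values in young cells were those of Aldh1a1 with Sult1a1 (0.49, Spearman's rho 0.34, 52 cells) and of Sult1a1 with Gstm1 (0.46, rho 0.49). Of the 10 young cells that expressed Aldh1a1, 6 expressed Sult1a1, as did 5 of the 42 others. In old cells r was 0.02 for Aldh1a1 and Sult1a1, with Sult1a1 in 32 of 46 cells that expressed Aldh1a1 and 13 of 16 that did not. The difference between the ages in these values was not tested. The r of a member with the log2 number of counted reads per cell lay between -0.29 (Aldh2 in young cells) and 0.07 (Aldh2 in old cells).

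**Figure D3:**
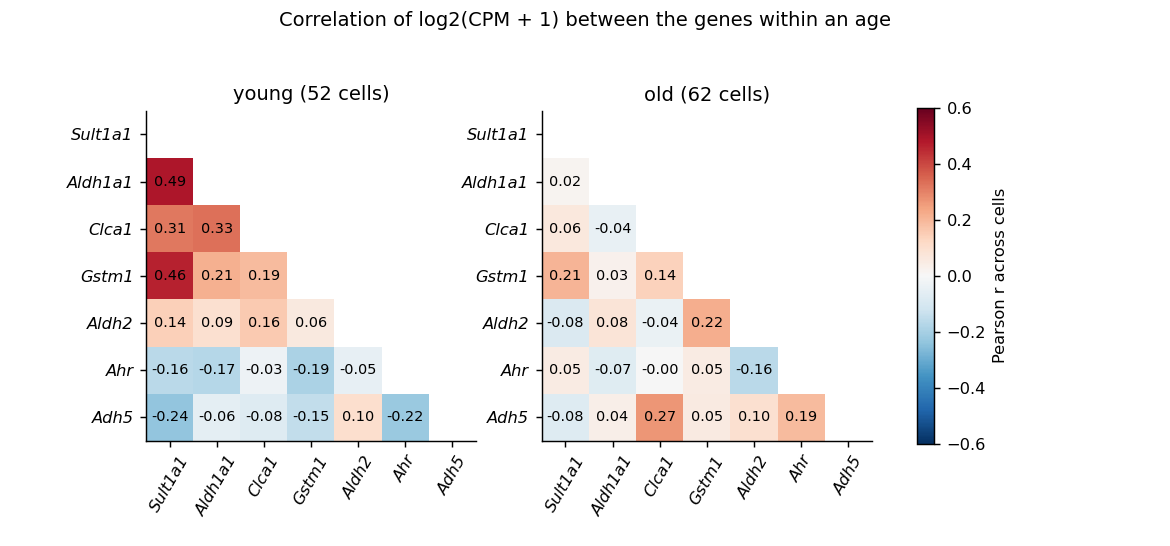
Pearson's r of log2(CPM + 1) for each pair of genes, across 52 young cells (left) and 62 old cells (right). In young cells the highest values lie among Sult1a1, Aldh1a1, Clca1 and Gstm1, up to 0.49, and in old cells the highest value is 0.27, for Adh5 and Clca1.

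For each member expressed in at least 20% of cells of both ages, the genes most alike across cells were found by the mean of the r values within each age, among 6043 genes. Gstm3 was by far the nearest to Gstm1, with r = 0.88 in young and 0.91 in old cells. All other nearest genes had a mean r of at most 0.39. They were Zfp607 (0.36) and Gimap5 (0.35) for Gstm1, Gstm3 (0.37), Gstm1 (0.33) and Prrc2a (0.31) for Sult1a1, Lrrc17 (0.39), Dcx (0.39) and Urod (0.35) for Aldh2, and Itga2b (0.35), Nvl (0.35) and Scfd1 (0.34) for Adh5.

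The members with close relatives were examined further, since 51-base reads from near-identical genes can be placed on either gene. The aligner was set to keep 1 location per read. Of the 1239 windows of 51 bases in the Gstm1 transcript, 281 (22.7%) also occur in the transcript of another gene. Of these, 210 occur in Gstm2-ps1 and 121 in Gstm3, and a window can occur in more than 1 other gene. For the transcript taken for Clca1 this held for 876 of 3474 windows (25.2%). Of these, 802 occur in Clca3a2 and 124 in Clca3b, which the table calls Clca2 and Clca4. For Aldh1a1 it held for 146 of 2308 (6.33%), all in Aldh1a7, and for Sult1a1 for 100 of 1320 (7.58%), in a predicted gene, Gm6939. The transcripts of Aldh2, Adh5 and Ahr had 0 such windows. The first 90 coding bases of the mu-class genes, from the GENCODE transcripts, are shown to make the likeness visible, with capitals where Gstm2 or Gstm3 differs from Gstm1. Gstm2 was 85.9% and Gstm3 89.4% identical to Gstm1 over 654 coding bases.
Gstm1: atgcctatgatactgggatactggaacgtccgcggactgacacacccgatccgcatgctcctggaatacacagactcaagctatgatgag
Gstm2: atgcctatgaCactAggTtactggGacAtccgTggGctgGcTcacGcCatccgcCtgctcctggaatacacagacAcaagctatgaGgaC
Gstm3: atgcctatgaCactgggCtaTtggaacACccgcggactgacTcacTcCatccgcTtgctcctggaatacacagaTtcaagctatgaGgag
The same stretch of Aldh1a1 and Aldh1a7, with capitals where Aldh1a7 differs, holds 5 differences, and the coding sequences were 91.6% identical over 1503 bases.
Aldh1a1: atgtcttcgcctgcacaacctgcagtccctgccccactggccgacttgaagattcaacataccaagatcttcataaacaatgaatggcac
Aldh1a7: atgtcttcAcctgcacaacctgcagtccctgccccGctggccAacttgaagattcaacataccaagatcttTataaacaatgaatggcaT

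Gstm3 reads were a nearly constant share of Gstm1 reads. Over all cells of an age they came to 4.96% of the Gstm1 reads in young and 4.84% in old cells. In cells with at least 100 Gstm1 reads the median share was 4.75% in 17 young cells (quartiles 4.37 to 5.69%) and 4.80% in 50 old cells (3.47 to 5.34%), so the higher Gstm3 level in old cells (1.45 in young, 3.69 in old, a difference of 2.24) came with a similar ratio to Gstm1. Gstm2 did not keep such a ratio: its median was 0.357% in young and 0.577% in old cells, but the upper quartile of the old cells was 16.6%. The Gstm2 level was 0.95 in young and 3.35 in old cells, a difference of 2.40. Clca2 reads were a median of 15.96% of Clca1 reads in 5 young cells and 15.87% in 28 old cells with at least 100 Clca1 reads. Clca2 also had reads in 31 young and 3 old cells that had no Clca1 read, against 1 young and 0 old cells with a Gstm3 read but none of Gstm1. Aldh1a7 reads were 1.63% and 2.06% of the Aldh1a1 reads and occurred in no cell without an Aldh1a1 read. How many reads of the relatives belong to the members was not tested, so the levels of Gstm3, Aldh1a7, Clca2 and Clca4 are uncertain. With the reads of relatives summed into the members, an alternative added after the data were seen, the level difference was 3.88 for Gstm1, 4.49 for Aldh1a1 and 3.35 for Clca1.

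**Figure D4:**
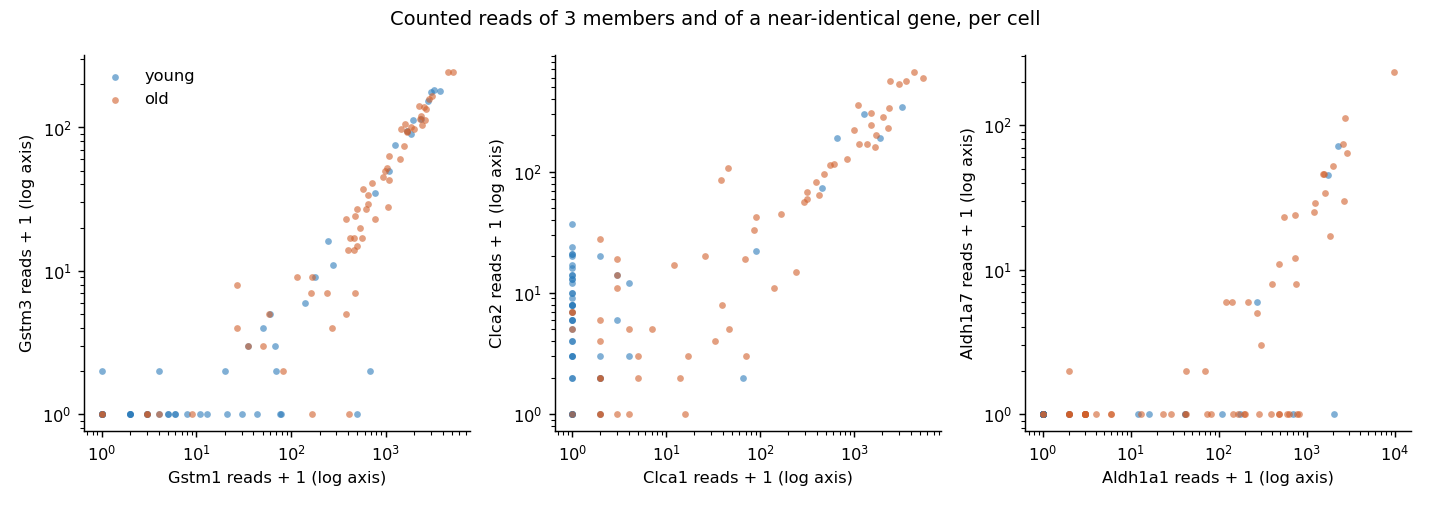
Counted reads plus 1 in each cell, on log axes, of Gstm1 and Gstm3 (left), Clca1 and Clca2 (middle) and Aldh1a1 and Aldh1a7 (right), in young and old cells. Gstm3 lies on a line with Gstm1 at both ages, and a column of cells with no Clca1 read but with Clca2 reads, 31 young and 3 old, stands at the left of the middle panel.

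The young and old cells also differ in cell cycle genes and in platelet genes. One or more of the cell division genes Ccna2, Ccnb1, Cdc25c and Cdk1 passed the limit in 27 young and 13 old cells. Among the 25 young and 49 old cells with none of them, the level differences were 4.45 for Sult1a1, 4.24 for Aldh1a1, 3.40 for Clca1 and 2.71 for Gstm1, all still past the limit. Adh5 turned from -0.76 over all cells used to 0.26 in these cells. Young cells with a cycle gene expressed Adh5 in 23 of 27 cells (mean level 6.03), and those without in 14 of 25 (4.11), while in old cells the mean was 4.24 with and 4.37 without. The sign of the Adh5 difference thus changed with the cells used. Gstm1 in young cells was lower in those with a cycle gene (3.20) than in those without (5.16). Clca1 went the other way in old cells: it was expressed in 12 of 13 cells with a cycle gene (92.3%, 63.97 to 99.8%; mean level 7.51) and in 34 of 49 without (69.4%, 54.6 to 81.7%; mean level 4.82), and the intervals overlap. Cells with and without cycle genes come from the same mouse, so no test was made. Of the 6 platelet genes that the study selected on these cells (Clu, Selp, Sdpr, Itgb3, Fhl1 and Tgm2), 6 were higher by at least 1 in old cells, with a median difference of 2.76. The r of their mean level with Gstm1 was 0.25 in young and 0.27 in old cells. For Aldh1a1 it was 0.35 and 0.05, for Clca1 0.33 and -0.03, and for Sult1a1 0.21 and 0.13. The part of platelet genes and of the cell cycle in the differences was not tested.

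The gene families and pathways around the members were described by lists taken by name, which together hold 168 genes, 123 of them with a count. Of these 123 genes, 14 (11.4%) were higher and 7 (5.69%) lower in old cells by at least 1. Without the members, 10 (8.62%) of 116 were higher and 7 (6.03%) lower, beside 3.91% and 4.49% of all genes. Among the 10 are Gstm3, Aldh1a7 and Clca2, which share 51-base windows with a member. Gstm2, a relative of Gstm1 without such a shared window, is also among them. The median difference over these 116 genes was 0.03. For shares of expressing cells, the intervals lay apart for 5 of the 116 genes with higher shares in old cells and for 1 with a lower share. Over all genes this held for 0.899% and 0.733%. The higher ones were Aldh1a7, Gstm2, Gstm3 and Clca4, all relatives of a member, and Dhrs3. Of the 21 listed genes past the limit, 20 had enough reads for a ratio of summed counts, and 2 of these, Aldh7a1 and Tiparp, had a ratio of the other sign.

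Of 15 aldehyde dehydrogenases with a count, 2 were higher (Aldh1a1 and Aldh1a7, the latter 0.19 in young and 1.45 in old cells) and 1 was lower, with a list median of 0.05. The lower one was Aldh7a1, an enzyme of lysine breakdown, with a mean level of 2.66 in young and 1.51 in old cells (23 of 52 and 14 of 62 cells). As a ratio of summed counts the direction turns, with 40.7 CPM of the summed reads in young and 50.5 in old cells. Aldh9a1, which oxidizes aminoaldehydes, had 2.42 and 2.99, within the limit. Of 19 alcohol dehydrogenases and carbonyl reductases, 1 was higher and 2 were lower (median -0.08). Dhrs3, which reduces retinaldehyde back to retinol, had a mean level of 2.08 in young and 5.29 in old cells and was expressed in 16 of 52 and 49 of 62 cells. Dhrs1 (2.09 and 0.66) and Akr1a1 (6.34 and 5.33), an aldehyde reductase, were lower. Of 17 genes of retinoid handling, 4 were higher and 0 lower (median 0.33): Aldh1a1, Dhrs3, Rdh13 (2.78 and 4.07) and Cyp26b1 (0.25 and 1.51), which breaks down retinoic acid. In CPM of the summed reads, Rdh13 had 165.2 in young and 191.6 in old cells, a log2 ratio of only 0.21. Aldh1a1 and Dhrs3 act on retinaldehyde in opposite directions and were both higher. Aldh1a1, Dhrs3, Gstm1, Gstm2, Gstm3, Sult1a1 and Clca1 were selected by the study on these cells, so their direction is no independent evidence.

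**Figure D5:**
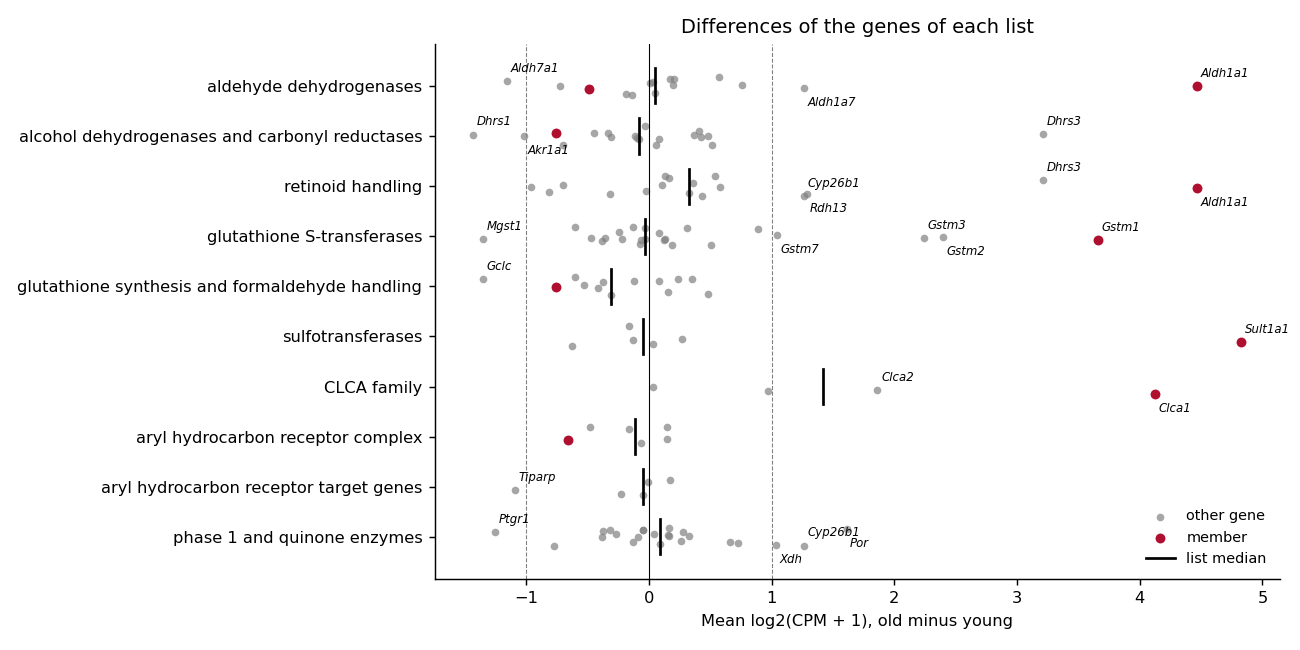
Level difference, old minus young, of each gene of 10 lists; red points are the members, grey points the other genes, black bars the list medians and dashed lines the limit of 1 in either direction. Genes past the limit are named; apart from the CLCA family, whose median is 1.41 over 4 genes, the list medians lie between -0.31 and 0.33.

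Of 23 glutathione S-transferases with a count, 4 were higher (Gstm1, Gstm2, Gstm3 and Gstm7, the last 0.73 in young and 1.77 in old cells) and 1 was lower, with a median of -0.03. The genes that were higher all belong to the mu class, and 2 further mu-class genes, Gstm4 (0.37 and 0.56) and Gstm6 (0.15 and 0.02), did not pass the limit, nor did Gstm5 (1.37 and 2.25). The lower one was Mgst1, a membrane-bound transferase, with 1.94 and 0.59. Among 13 genes of glutathione synthesis and formaldehyde handling, 0 were higher and 1 was lower, with a median of -0.31. That gene was Gclc, the catalytic subunit of the enzyme that makes the glutathione precursor, with a mean level of 1.78 in young and 0.43 in old cells (12 and 5 cells). Its partner Gclm had 1.78 and 2.02, and Esd, which completes formaldehyde oxidation after Adh5, had 5.06 and 5.54. Of 6 sulfotransferases, Sult1a1 was higher and the others lay within the limit (median -0.05). Of 4 CLCA genes, Clca1 and Clca2 (mean level 2.14 in young cells, higher by 1.86 in old cells) were higher, Clca4 had 0.09 and 1.05, and Clca6 had 0 reads in young and 7 in old cells.

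Ahr sits in a complex with Hsp90 and Ptges3 and pairs with Arnt once it has bound a ligand. None of the 6 genes of this complex with a count passed the limit (median -0.11). Arnt had a mean level of 1.72 in young and 1.56 in old cells. Ptges3 (10.15 and 9.67) and Hsp90ab1 (11.08 and 11.23) were expressed in every cell of both ages. Of 5 Ahr target genes, 0 were higher and 1 was lower (median -0.05): Tiparp, an ADP-ribosyltransferase that represses the receptor, had 4.38 and 3.30, but in CPM of the summed reads it had 120.01 in young and 131.3 in old cells, which turns the direction. Nqo1, another target and a quinone reductase, had 0.80 and 0.75. Among 23 phase 1 and quinone enzymes, a list that shares Nqo1 and Cyp26b1 with lists above, 3 were higher and 1 was lower, with a median of 0.09. Por, which passes electrons to the cytochrome P450 enzymes, had 3.40 in young and 5.01 in old cells. Cyp26b1 and Xdh, a purine oxidase with 0.04 and 1.07, were the others that were higher. Ptgr1, which reduces reactive alkenals, passed the limit in 10 young cells (mean level 1.25) and was at 0 reads in all old cells, and a count of 0 over the group allows up to 3 reads.

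By RefSeq positions on GRCm38.p6, Aldh1a1 lies on chromosome 19 at 20492583 to 20643463, Aldh2 on chromosome 5 at 121566027 to 121593824, Sult1a1 on chromosome 7 at 126672865 to 126690443 and Ahr on chromosome 12 at 35497979 to 35534989. Gstm1 (108012250 to 108017973), Adh5 (138437200 to 138455499) and Clca3a1 (144729677 to 144760977) lie on chromosome 3. RefSeq promoter sequences were held for 5 of the 7 members, not for Aldh2 and Ahr. Since Sult1a1, Aldh1a1, Gstm1 and Clca1 were higher together in old cells, the 250 bases before a start site of each were searched for GCGTG, the core letters that the Ahr and Arnt pair is known to bind, and for TGACNNNGC, the letters known for Nrf2, on both strands. GCGTG was found in 1 of the 4 windows, that of Gstm1, at 76 bases before the start, and is printed in capitals. It occurs in 28.2% of 32851 mouse promoter windows of the same length. TGACNNNGC was found in none of these 4 windows and occurs in 10.2% of all. The Aldh1a1 window precedes a second RefSeq start inside the gene, at 20601968. The window before its other start, at 20492583, held neither set of letters. A second Gstm1 window, before a start at 108017818, held the same GCGTG, at 231 bases before that start. The Sult1a1 window, the only one held for this gene, precedes a start at 126676418, also inside the gene. A match is a description of letters and not a bound site, and the Adh5 windows held neither.
Gstm1, minus strand, chr3:108017974-108018223: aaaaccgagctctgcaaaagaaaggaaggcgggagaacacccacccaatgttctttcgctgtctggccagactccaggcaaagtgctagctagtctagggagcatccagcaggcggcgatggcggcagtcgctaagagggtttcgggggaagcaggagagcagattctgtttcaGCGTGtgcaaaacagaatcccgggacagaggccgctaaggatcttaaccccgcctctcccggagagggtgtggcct
Aldh1a1, plus strand, chr19:20601718-20601967: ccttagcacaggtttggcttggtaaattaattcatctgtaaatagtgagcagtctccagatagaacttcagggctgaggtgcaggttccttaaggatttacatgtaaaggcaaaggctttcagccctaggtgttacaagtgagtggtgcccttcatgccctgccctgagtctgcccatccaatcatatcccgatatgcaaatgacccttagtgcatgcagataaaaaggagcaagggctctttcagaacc
Sult1a1, minus strand, chr7:126676419-126676668: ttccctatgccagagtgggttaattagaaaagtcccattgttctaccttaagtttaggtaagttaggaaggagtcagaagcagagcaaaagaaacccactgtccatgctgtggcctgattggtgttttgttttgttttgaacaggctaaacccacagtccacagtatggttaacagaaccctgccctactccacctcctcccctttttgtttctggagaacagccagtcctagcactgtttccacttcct
Clca3a1, minus strand, chr3:144760978-144761227: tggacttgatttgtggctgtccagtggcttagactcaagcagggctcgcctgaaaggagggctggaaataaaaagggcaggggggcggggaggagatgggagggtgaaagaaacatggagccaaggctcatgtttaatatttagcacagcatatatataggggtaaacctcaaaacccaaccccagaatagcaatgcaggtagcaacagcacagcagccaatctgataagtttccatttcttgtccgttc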

How the data were processed

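The deposited values are counts of reads per RefSeq gene and cell, without normalization; the authors mapped single 51-base reads to mm10 with TopHat 2.0.10, per the labels and the study's methods, and counted them with rpkmforgenes. The cells used met the study's limits (at least 500000 mapped reads, at most 10% mitochondrial reads and at least 3000 detected genes), taken as flags from its table of cells. Doublets were checked by the authors by imaging the chip, and no caller was run. Each column name matched 1 sample title, and 46 well names occur on both chips.

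Counts were divided by the cell's total and given as log2(CPM + 1) with a pseudocount of 1 CPM. A group is 1 mouse, so no test across genes was run, and design entries give values only. Shares carry exact (Clopper-Pearson) and sums exact Poisson 95% intervals, for counting error only. The sign of level differences was checked on counts simulated with known changes. That simulation used 1 fixed spread, not set to match the sparse counts of the members. The members and lists were chosen with earlier results of these data known. Named genes are the members, up to 4 genes per list with the largest differences of at least 1, the 3 genes most like each member expressed in at least 20% of cells of both ages, near-identical relatives, and marker genes; other genes named from the lists (Aldh9a1, Gclm, Esd, Arnt, Ptges3, Hsp90ab1 and Nqo1) were chosen after their values were seen. Alternatives changed the cells, the pseudocount, the scaling (edgeR 4.0.16 TMMwsp, DESeq2 1.42.0 poscounts factors), the limits and the depth. Python 3.11.15 and R 4.3.3 were used. Transcript windows and coding starts came from GENCODE vM21.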

Additional observations from a re-analysis of the deposited data

Results flagged for a closer look

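The 21 cells that missed the study's limits (9 young and 12 old, with 4610 to 5176498 counted reads) entered no comparison above, and reads of the members were found in them. Gstm1 was expressed in 14 of these cells, Adh5 and Sult1a1 in 10 each, Aldh2 and Clca1 in 8 each, Aldh1a1 in 7 and Ahr in 1. By age, Aldh1a1 passed the limit in 0 of the 9 young and 7 of the 12 old, Sult1a1 in 1 and 9, Gstm1 in 5 and 9, and Clca1 in 2 and 6. Adh5 was expressed in 5 and 5 of them and Aldh2 in 4 and 4. They come from the same 2 mice, so they add no independent sample.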

How the results depend on the processing

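No paired analysis was possible because each age is 1 mouse and replicate numbers only name cells; for the same reason no replicate could be left out. The median level difference of the members (3.66) was 2.71 in cells without cycle genes, 4.33 at a pseudocount of 0.1 CPM, 1.48 as the log2 ratio of summed counts and 1.57 for that ratio without the cell with most reads of each gene in each age. The CLCA median (1.41) was 2.08 at that pseudocount and 2.66 and 2.96 for these ratios, and that of phase 1 and quinone enzymes (0.09) was 0.73 and 0.999. Keeping genes that 10% or more of the cells expressed gave a sulfotransferase median of 2.10 (-0.05 over all 6), since 2 genes remained. The ratio weighs cells by their reads, and the log scale weighs cells equally. The other 128 of 138 values over the members and lists stayed within 1.5 times on the linear scale (counts within 1.5 times, r within 0.05), but list medians near 0 changed sign in 18 of 100 cases, over 6 of the lists. In cells without cycle genes, glutathione synthesis went from -0.31 to 0.25 and the Ahr complex from -0.11 to 0.33, and in the ratio without the cell with most reads the glutathione S-transferases went from -0.03 to 0.42 and the alcohol dehydrogenases from -0.08 to 0.23. The number of members higher by at least 1 was 4 under every alternative run, and Sult1a1, Aldh1a1, Clca1 and Gstm1 were higher in old cells in all of them. Gstm1 ranged from 1.48 to 4.33 and Sult1a1 from 3.55 to 6.79. The number of members with share intervals apart was 4 over the cells used and 3 both in cells without cycle genes and when at least 1 read was counted, where Gstm1 overlapped. The Adh5 difference was positive in 1 of 9 alternatives, the cells without cycle genes. For Ahr the log2 ratio of summed counts was -3.93, and -5.16 without the cell with most reads in each age. That cell held 190 of the 238 old reads, so few reads remain behind the second ratio. TMMwsp and poscounts factors moved the median of all genes by 0.01 and 0.001. With 1 mouse an age, what more mice would show is not known.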
